A study of Mus musculus with 6 samples.

Results

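The 9 genes described here belong to the corticosteroid response and were measured in whole mouse brain, among 55450 genes in the count tables. They were chosen by name: 7 genes that glucocorticoids are known to induce (Fkbp5, Tsc22d3, Sgk1, Zbtb16, Plin4, Hif3a and Cdkn1a) and the receptors Nr3c1 and Nr3c2. The names were chosen with earlier results of these data known. Each name matched 1 Ensembl gene in GENCODE M21, and all 9 passed the filter on low counts. Long RNA from total brain was sequenced in 3 libraries from TRMT1L KO mice and 3 from WT mice, described as biological triplicates. TRMT1L is a relative of the tRNA methyltransferase TRMT1. No treatment other than the genotype is named, and the labels used here give no strain, sex, age, time of day or construct of the deleted allele.

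Corticosterone, the main glucocorticoid of mice, enters the brain from blood and binds a pair of nuclear receptors. The mineralocorticoid receptor, encoded by Nr3c2, binds it with high affinity and is largely occupied at rest, whereas the glucocorticoid receptor, encoded by Nr3c1, becomes occupied during stress and at the daily hormone peak. The bound receptor leaves its chaperone complex, enters the nucleus and binds glucocorticoid response elements in DNA. Its targets are transcribed in neurons, glia and vessels, so that their mRNA in brain tissue is widely used as a readout of recent hormone exposure.

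Counts in genes ranged from 31201119 to 36145961 per library. Trmt1l itself averaged 34.4 ± 1.26 CPM over the WT libraries and 2.87 ± 0.171 CPM over the KO libraries (SD, n = 3 each), where CPM is a gene's count relative to its library's total, after TMM scaling between libraries. Markers of astrocytes, oligodendrocytes, microglia, endothelium, mural cells, choroid plexus, meninges, blood and neurons were all counted in every library. Of 6 pituitary markers, 2 were counted in every library, and only Prl had no count in any. The summed level of the pituitary markers ranged from 0.166 CPM in KO 3 to 1.46 CPM in WT 3. Because the tissue is bulk brain, a change in the number of cells of a type and a change in RNA per cell cannot be told apart.

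In WT brain the receptors were the most abundant of the 9 genes per length of exon. Nr3c1 stood at 17.9 ± 0.771 CPM per kb of exon and Nr3c2 at 12.4 ± 0.538 (SD, n = 3). Next came Sgk1 at 10.7 ± 0.970, Tsc22d3 at 10.2 ± 1.17 and Zbtb16 at 9.77 ± 0.651 CPM per kb, and the WT libraries of neighbours in this trio overlapped. Fkbp5 at 2.29 ± 0.119 and Cdkn1a at 2.12 ± 0.214 CPM per kb overlapped as well. Hif3a at 1.09 ± 0.233 and Plin4 at 0.496 ± 0.0699 CPM per kb were the lowest, and neither overlapped its neighbours in the order. In the library KO 2 the order differed: Sgk1 at 27.3, Zbtb16 at 25.3 and Tsc22d3 at 23.4 CPM per kb lay above Nr3c1 at 15.3, and Plin4 at 6.30 lay above Cdkn1a at 5.83, Fkbp5 at 4.89 and Hif3a at 4.87. Exon length was taken over all annotated isoforms, which lowers the per-length level of genes with long minor isoforms.

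**Figure D1:**
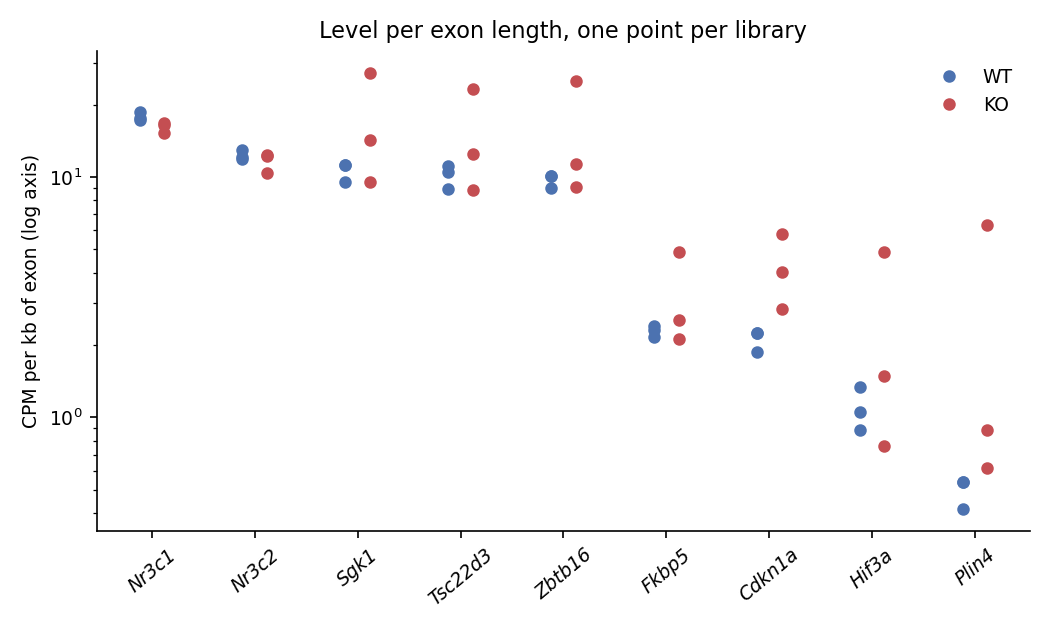
Level of each gene in CPM per kb of exon (log axis), one point per library, WT in blue and KO in red, ordered by the WT mean. In 7 genes a single KO point, that of KO 2, is the highest, and for the receptors the KO 2 point is the lowest.

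None of the 9 genes passed the threshold between KO and WT. The quasi-likelihood test of edgeR, at an adjusted p-value below 0.05, called 0 of 9, against 0.00942% of the 21237 genes tested. Without adjustment, 6 of the 9 had a p-value under 0.05, against 7.92% of all genes. That number depended on the model and the libraries, and ranged from 2 (limma-voom, the robust option of edgeR, without WT 3, without KO 2) to 8 (no filter on low counts, without KO 1, without KO 3). Of the 6, 5 had a higher mean in KO, against 4.54% of all genes, and 1 (Nr3c1) a lower one, against 3.38%. Every KO library lay above every WT library for 2 genes, Plin4 and Cdkn1a, where 7.46% of all genes showed this. Every KO library lay below every WT library for Nr3c1, as for 6.97% of all genes. The median log2 fold change of the 9 genes was 0.64 and that of all genes 0.00013. These differences rested largely on 1 library, KO 2: without it the median was 0.064, and 2 of the 9 genes had an unadjusted p-value under 0.05 with a higher mean in KO (4.2% of all genes) and 0 with a lower one (3.03%).

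KO 2 was the highest of the 6 libraries for all 7 induced genes, a position it held for 21.8% of all genes tested. For 6 of the 7 it reached at least 1.5 times the highest of the other 5 libraries, which it did for 0.523% of all genes. Cdkn1a was just under this, at 1.45 times. Both this library and the factor of 1.5 were chosen after the values were seen. KO 1 was second for 6 of the 7. At the low end KO 3 was the lowest of all 6 libraries for 4 of the 7 genes and WT 3 for 2. For Fkbp5, Sgk1, Tsc22d3 and Hif3a, KO libraries therefore stood at both ends of the order, whereas for Plin4 and Cdkn1a the KO libraries were the 3 highest. Counts in genes of KO 2, at 34221660, and its share of mapped reads in no gene, at 49.8%, lay inside the range of the other libraries. Its TMM scaling factor was the lowest, at 0.984 against 0.997 to 1.01. Its counts were also the farthest from the other libraries of its group, with a chi-square per degree of freedom of 7.66 against KO 1 and 9.50 against KO 3, where the other pairs within a group lay between 4.40 and 6.04. The part of these differences in the values of the 9 genes was not tested.

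**Figure D2:**
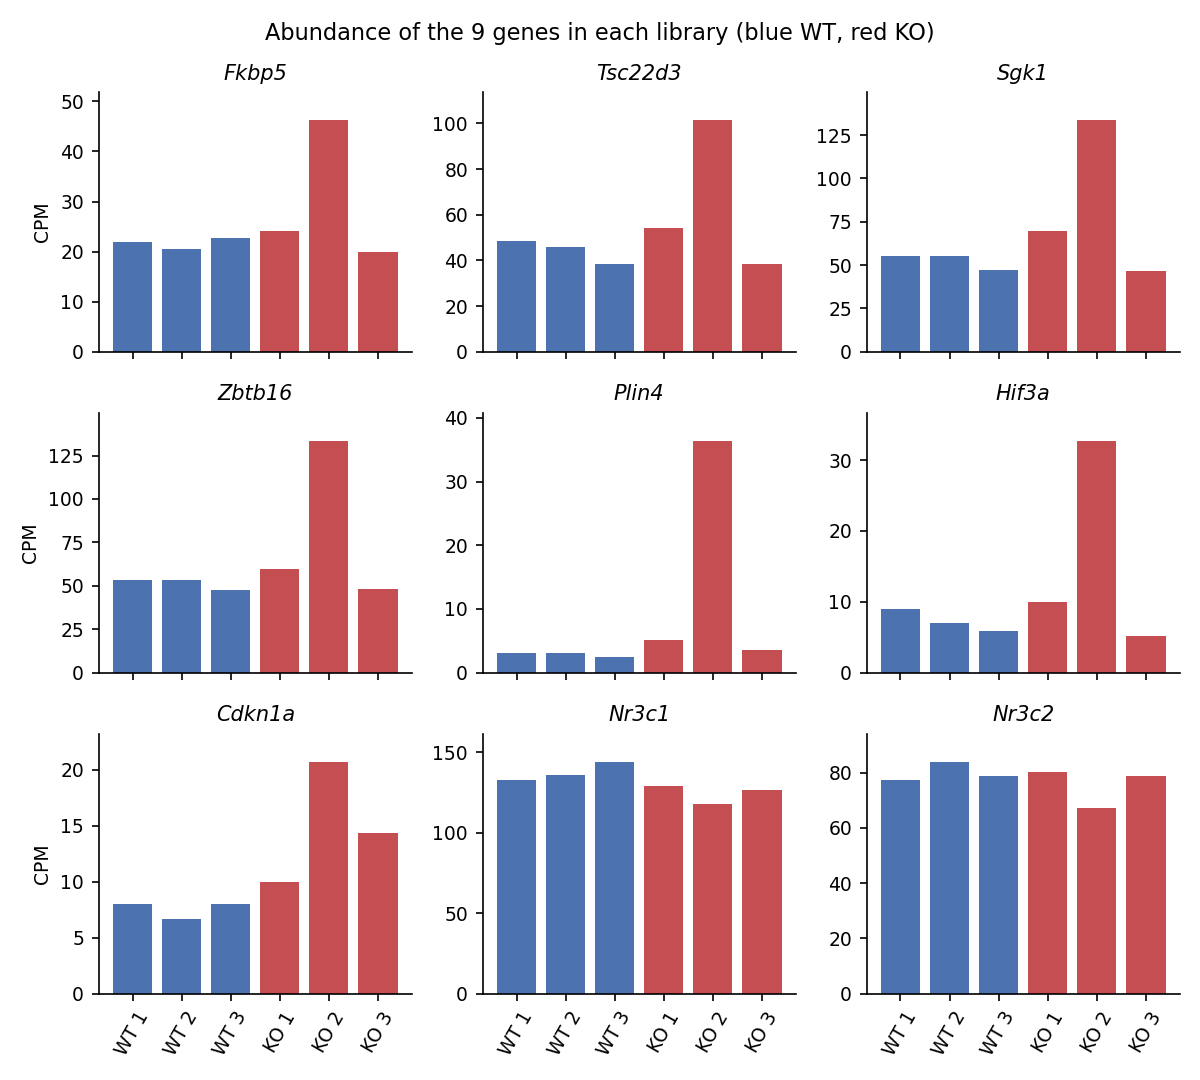
Abundance in CPM (vertical axes from 0) of each of the 9 genes in the 6 libraries, WT in blue and KO in red. KO 2 carries the tallest bar in the 7 induced genes and the shortest for Nr3c1 and Nr3c2; for Cdkn1a the KO 3 bar is the second tallest.

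Fkbp5 encodes FKBP51, a co-chaperone that lowers the hormone affinity of the glucocorticoid receptor and is itself induced by it, closing a negative feedback loop. The gene (ENSMUSG00000024222.17) lies on the minus strand of chromosome 17 from 28399094 to 28517527 in GRCm38. Fkbp5 stood at 21.8, 20.5 and 22.8 CPM in WT libraries 1 to 3 and at 24.1, 46.3 and 20.003 CPM in KO libraries 1 to 3. The WT values and those of KO 1 and KO 3 lay within a factor of 1.21 of each other, and KO 2 stood 2.12 times above their median. Between genotypes Fkbp5 differed by 0.47 in log2 (SE 0.234, edgeR adjusted p = 0.647), and by 0.022 (SE 0.0881) without KO 2. AC154912.5, an annotated transcript inside an intron of Fkbp5 on the same strand, whose counts cannot be separated from intronic Fkbp5 reads, was at 2.47 CPM in KO 2 and at most 1.47 CPM elsewhere.

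Tsc22d3 encodes GILZ, a leucine zipper protein through which glucocorticoids restrain inflammatory transcription. It lies on the minus strand of chromosome X from 140539528 to 140600659 (ENSMUSG00000031431.13). Tsc22d3 was measured at 48.5, 45.7 and 38.7 CPM in WT and at 54.3, 102 and 38.5 CPM in KO libraries 1 to 3. KO 1 and KO 2 were above the WT range and KO 3 just below it, so the groups overlapped. Tsc22d3 gave a log2 ratio of KO to WT of 0.55 (SE 0.258, edgeR adjusted p = 0.628) with all libraries and 0.066 (SE 0.127) without KO 2.

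Sgk1 encodes a serum- and glucocorticoid-regulated kinase that controls ion channels and transporters, and it is transcribed from several alternative starts. It lies on the plus strand of chromosome 10 from 21882184 to 21999903 (ENSMUSG00000019970.15). Sgk1 was at 55.0, 55.4 and 47.0 CPM in WT and at 69.8, 134 and 46.6 CPM in KO libraries 1 to 3. Again KO 1 and KO 2 were above every WT library and KO 3 was below the lowest. For Sgk1 the log2 ratio of KO to WT was 0.67 (SE 0.274, edgeR adjusted p = 0.614), and 0.15 (SE 0.133) without KO 2.

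The DNA letters of the glucocorticoid response element were searched in promoter windows from RefSeq (GRCm38.p6), from 250 bases before to 50 bases after each start, on both strands. Windows were found for 7 of the 9 genes, 15 windows in all, and not for Zbtb16 and Nr3c1. The full palindrome, the half-site AGAACA and its reverse complement TGTTCT with any 3 bases between, occurred in 3 of 32851 windows (0.00913%), and 1 of these belongs to Sgk1. It is shown because it is the exact element in the promoter of one of the genes that stood out in KO 2. The stretch lies at chr10:21993661-21993760 on the plus strand, and the element, in capitals, ends 174 bases before the start of the transcript Sgk1-202. The stretch overlaps no annotated exon of Sgk1 and is spanned by 5 of its 13 transcripts, which start farther upstream.
Sgk1: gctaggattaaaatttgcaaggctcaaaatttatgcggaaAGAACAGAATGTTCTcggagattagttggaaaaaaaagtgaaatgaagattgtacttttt
The half-site AGAACA, which is part of the full element, was present in 4 of the 15 windows, 3 of Sgk1 and 1 of Tsc22d3, and in 19% of all windows. A match of letters describes the sequence and does not show receptor binding in these brains, and the count tables do not divide Sgk1 reads between its starts.

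Zbtb16 encodes PLZF, a zinc finger transcriptional repressor that is induced by glucocorticoids in many tissues. It lies on the minus strand of chromosome 9 from 48654297 to 48836222 (ENSMUSG00000066687.5). Zbtb16 was at 53.6, 53.6 and 47.6 CPM in WT and at 59.9, 133 and 48.0 CPM in KO libraries 1 to 3. Outside KO 2 the spread was small, a factor of 1.26 from lowest to highest, and KO 2 stood 2.49 times above the median of the rest. Its log2 ratio of KO to WT was 0.64 (SE 0.281, edgeR adjusted p = 0.622), and 0.064 (SE 0.0887) without KO 2.

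Plin4 and Hif3a had the widest differences between libraries. Plin4 encodes perilipin 4, a protein that coats lipid droplets, and lies on the minus strand of chromosome 17 from 56100591 to 56109803 (ENSMUSG00000002831.13). Its counts were 113, 97 and 79 in WT and 178, 1225 and 128 in KO libraries 1 to 3, which is 3.11, 3.09 and 2.40 CPM against 5.12, 36.4 and 3.54 CPM. KO 2 was 11.7 times the median of the other 5 libraries, and KO 1 and KO 3 were also above all WT libraries. Plin4 had the largest log2 ratio of KO to WT among the 9 genes, 2.38 (SE 0.721, edgeR adjusted p = 0.576), and it was 0.59 (SE 0.185, adjusted p = 0.646) without KO 2. Reads on the strand opposite to Plin4 numbered 249 to 361 per library, as many as on its own strand or more in 5 of the 6 libraries. When reads were counted without regard to strand, its log2 fold change was therefore lower, at 1.03.

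Hif3a encodes a hypoxia-inducible factor subunit, some of whose isoforms restrain the other HIF proteins, and it is also induced by glucocorticoids. It lies on the minus strand of chromosome 7 from 17031507 to 17062427 (ENSMUSG00000004328.15). Hif3a was at 9.01, 7.05 and 5.93 CPM in WT and at 9.93, 32.7 and 5.12 CPM in KO libraries 1 to 3. KO 2 was 4.64 times the median of the others, while KO 3 was the lowest library. For Hif3a the log2 ratio of KO to WT was 1.11 (SE 0.498, edgeR adjusted p = 0.622), and 0.030 (SE 0.240) without KO 2.

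Other genes of the hypoxia response were counted beside Hif3a. Of 14 hypoxia-inducible factor genes and targets, 0 were called by edgeR, 2 had an unadjusted p-value under 0.05 with a higher mean in KO and 1 with a lower one. The shares of all genes were 4.54% and 3.38%. Their median log2 fold change was 0.051, with 0.033 without KO 2, 0.084 without WT 3 and 0.082 from unstranded counts, and KO 2 was the highest library for 4 of the 14 (28.6%), near the 21.8% of all genes. Hif1a, the oxygen-regulated subunit, was at 127 ± 4.46 CPM in WT and 116 ± 3.90 in KO (SD, n = 3; edgeR adjusted p = 0.581). Epas1, which encodes HIF-2 alpha, was at 190 ± 4.43 and 207 ± 14.3 CPM (adjusted p = 0.622), and Egln2, an oxygen-sensing prolyl hydroxylase, at 47.6 ± 0.255 and 54.0 ± 4.44 CPM (adjusted p = 0.579). Without KO 2 the log2 fold change of Epas1 moved from 0.12 to 0.065 and that of Egln2 from 0.18 to 0.11.

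Cdkn1a followed a different order. It encodes p21, a cyclin-dependent kinase inhibitor induced by p53 as well as by glucocorticoids, and lies on the plus strand of chromosome 17 from 29090976 to 29100727 (ENSMUSG00000023067.14). Cdkn1a was at 7.97, 6.67 and 7.99 CPM in WT and at 10.01, 20.7 and 14.3 CPM in KO libraries 1 to 3. All KO libraries were above all WT libraries, and KO 3, low for most of the other induced genes, was here the second highest. The log2 ratio of KO to WT, 0.99 (SE 0.207), had an unadjusted p-value of 0.000511 in edgeR but an adjusted one of 0.550. Without KO 2 the log2 fold change was 0.69 (SE 0.146, adjusted p = 0.539), and without KO 1 it was 1.21 (adjusted p = 0.0661), the smallest adjusted p-value of any of the 9 genes in the fits that each left out 1 library.

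Other targets of p53 were compared with Cdkn1a. Of 12 such genes, 0 were called by edgeR, and 1 had an unadjusted p-value under 0.05, with a higher mean in KO, where 4.54% of all genes did. That gene was Fas, a death receptor, at 1.17 ± 0.287 CPM over WT and 1.75 ± 0.239 CPM over KO libraries (SD, n = 3; log2 ratio 0.57, SE 0.214, edgeR adjusted p = 0.590). The most abundant members of this list, Zmat3, an RNA-binding zinc finger gene, and Plk2, a polo-like kinase gene, had log2 fold changes of -0.069 (SE 0.0433) and -0.042 (SE 0.0714). Without KO 2 these values were -0.098 for Zmat3 and -0.091 for Plk2. The median over the 12 genes was 0.097, and it was 0.050 without KO 3, 0.079 without KO 2 and 0.058 with a correction for GC content. Without KO 2, 1 gene, Bbc3, had an unadjusted edgeR p-value under 0.05 with a higher mean in KO (4.2% of all genes). In that fit 1 gene, Zmat3, had one with a lower mean (3.03%).

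**Figure D3:**
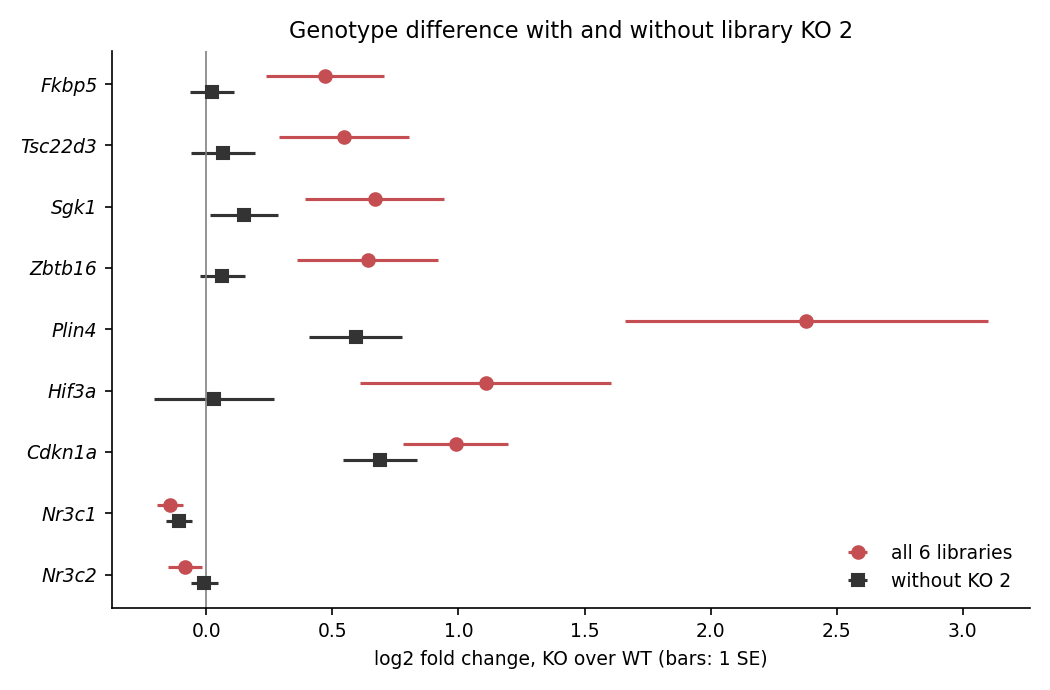
Log2 fold change of KO over WT with 1 SE for the 9 genes, from all 6 libraries (red circles) and without KO 2 (dark squares). For Fkbp5, Tsc22d3, Zbtb16 and Hif3a the value without KO 2 is between 0.022 and 0.066, while Sgk1 goes from 0.67 to 0.15, Plin4 from 2.38 to 0.59 and Cdkn1a from 0.99 to 0.69.

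The receptor genes had their lowest values in the library where the induced genes had their highest. Nr3c1 (chromosome 18 from 39410545 to 39519421, minus strand, ENSMUSG00000024431.15) was at 133, 136 and 144 CPM in WT and at 129, 118 and 126 CPM in KO libraries 1 to 3. The groups did not overlap, and the lowest value was that of KO 2. In log2 the KO to WT ratio of Nr3c1 was -0.15 (SE 0.0511, edgeR adjusted p = 0.579), and -0.11 (SE 0.0506, adjusted p = 0.692) without KO 2. Nr3c2 (chromosome 8 from 76899442 to 77245012, plus strand, ENSMUSG00000031618.13) was at 77.4, 84.0 and 78.7 CPM in WT and at 80.1, 67.3 and 79.0 CPM in KO libraries 1 to 3. KO 2 alone was outside the WT range for Nr3c2, at 0.852 times the median of the other 5 libraries. Its log2 ratio of KO to WT was -0.084 (SE 0.0676, edgeR adjusted p = 0.787), and -0.0082 (SE 0.0530) without KO 2. KO 2 was the lowest library for 21.5% of all genes tested.

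A wider list of 36 genes known to be induced by glucocorticoids was then examined, of which 34 had enough counts to be tested. It was chosen with earlier results of these data known, so its counts cannot be read as an independent test. None of the 34 was called by edgeR. Unadjusted p-values under 0.05 were found for 12, all with a higher mean in KO (4.54% of all genes), and the log2 fold change was above 0 for 33 of 34, with a median of 0.29. KO 2 was the highest library for 27 of the 34 (21.8% of all genes), the lowest for 0 (21.5%), and at least 1.5 times the highest other library for 8 (0.523%). Without KO 2 the median was 0.090, and 7 genes had an unadjusted p-value under 0.05, all with a higher mean in KO (4.2% of all genes).

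The members of this list fell into different patterns. Some had the pattern of Fkbp5, and these were named after their values were seen. Map3k6, a stress-activated kinase gene, was at 7.01 CPM in KO 2 against 1.40 to 2.83 CPM in the other libraries, a ratio of 3.86 to their median. Sult1a1, a sulfotransferase gene, was at 9.80 CPM against 3.24 to 5.47, Mfsd2a, a lipid transporter of the blood-brain barrier, at 24.5 CPM against 10.9 to 12.97, and Slc2a1, the glucose transporter GLUT1, at 129 CPM against 60.1 to 73.9. In others every KO library lay above every WT library, which held for 8 of the 34 and for 7.46% of all genes. Mt1, a metallothionein gene that is also induced by zinc, was at 85.4, 79.4 and 92.8 CPM in WT and at 115, 135 and 113 CPM in KO libraries 1 to 3, and its log2 ratio was 0.49 (SE 0.0744, edgeR adjusted p = 0.210), or 0.41 (adjusted p = 0.331) without KO 2.

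Mt2, its neighbour, was at 28.5 ± 2.25 CPM over WT and 45.6 ± 12.7 over KO libraries (SD, n = 3). Its log2 ratio was 0.68 (SE 0.149, edgeR adjusted p = 0.550), or 0.43 without KO 2. Pnpla2, the adipose triglyceride lipase gene, was at 14.7 ± 1.23 and 18.2 ± 0.839 CPM (log2 fold change 0.31, SE 0.0801, adjusted p = 0.576), with KO 2 at 18.7 close to KO 3 at 18.6. Fam107a, a stress-responsive actin-binding protein gene, was at 230 ± 6.62 and 276 ± 40.7 CPM (log2 fold change 0.26, SE 0.0815, adjusted p = 0.576, and 0.13 without KO 2). Glul, the glutamine synthetase gene of astrocytes and the most abundant of the list, was at 1091 ± 18.6 and 1148 ± 120 CPM (log2 fold change 0.073, SE 0.0616, adjusted p = 0.797, and -0.014 without KO 2). Dusp1, an immediate early phosphatase gene that glucocorticoids also induce, was named after its values were seen and was not highest in KO 2: it stood at 28.2 CPM in KO 1, 20.9 in KO 2 and 13.6 in KO 3, against 16.8 to 23.4 CPM in WT.

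**Figure D4:**
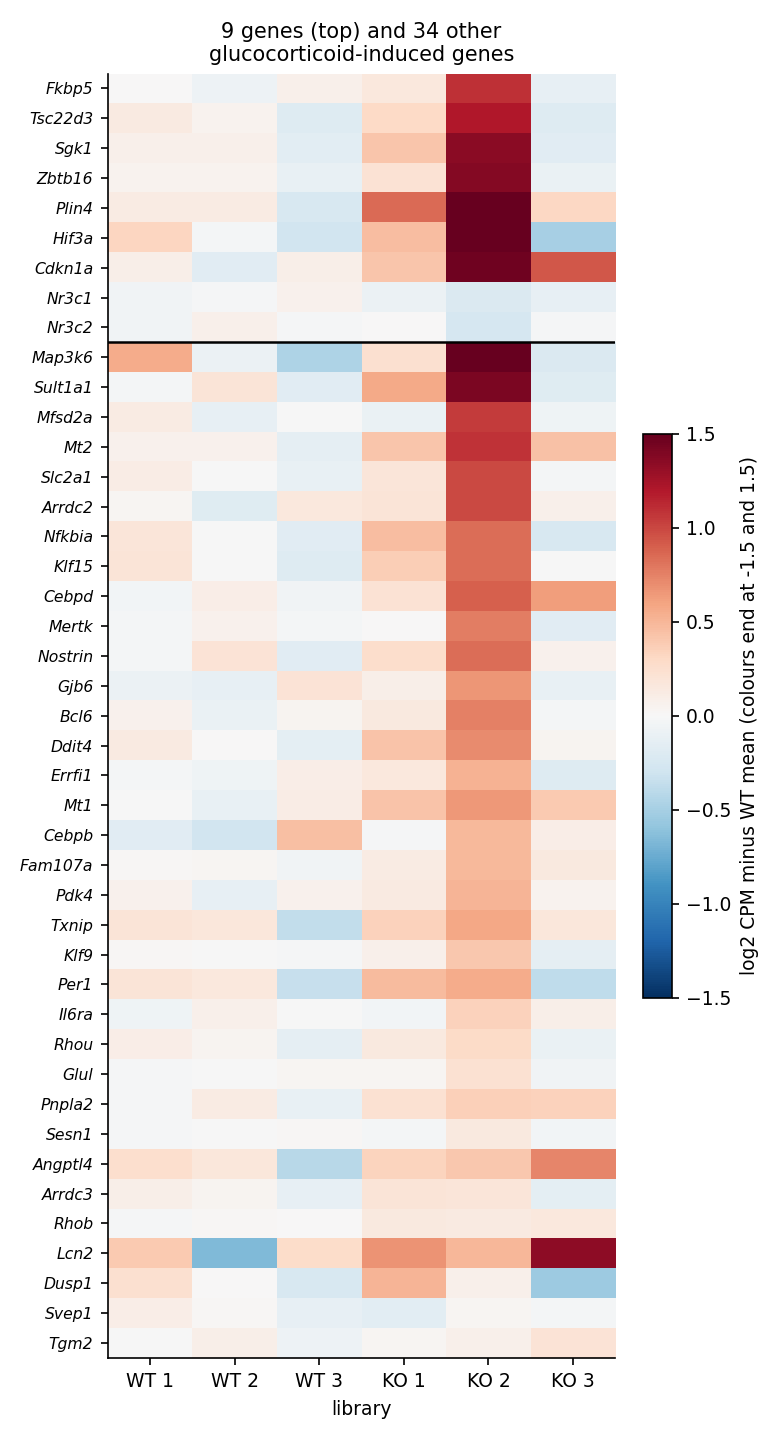
Heat map of log2 CPM minus the WT mean in each library (columns) for the 9 genes (above the line) and 34 other glucocorticoid-induced genes, sorted by the ratio of KO 2 to the median of the other libraries. The KO 2 column is red for most rows, whereas KO 1 is paler and KO 3 is mixed.

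A relaxed form of the element, GNACA and TGTNC with any 3 bases between, which every full element contains, was found in 156 of 32851 promoter windows (0.475%). It occurred in 1 of the 6 windows of Sgk1, at the full element shown above, and in 5 of 41 windows of the wider list, those of Fam107a, Map3k6, Mt1 and Txnip, whose product binds thioredoxin. The windows of Fam107a overlap and hold the same site, so that there are 4 distinct sites. The half-site AGAACA was present in 5 of the 41 windows (12.2%), below the 19% of all windows. The stretches are printed because they carry the nearest matches among the genes described here, with the match in capitals, each read on the strand of its gene. They lie at chr4:133240629-133240657 (Map3k6, plus strand), chr8:94178987-94179015 (Mt1, plus strand), chr14:8309877-8309905 (Fam107a, minus strand) and chr3:96557777-96557805 (Txnip, plus strand).
Map3k6: gaatagggGCACAGGCTGTTCcggaagtg
Mt1: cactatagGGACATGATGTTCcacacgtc
Fam107a: ggtggcttGGACATGGTGTTCtgagtctc
Txnip: cgctaggaGCACACCGTGTCCacgcgccc
The ratio of KO 2 to the median of the other libraries was 3.86 for Map3k6, 1.45 for Mt1, 1.37 for Fam107a and 1.33 for Txnip. Fkbp5, Tsc22d3, Plin4, Hif3a, Cdkn1a and Nr3c2 had neither the full nor the relaxed element in their windows.

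Genes of the receptor's machinery were examined in the same way. Of 15 chaperones and co-chaperones of steroid receptors, 0 were called by edgeR and 1 had an unadjusted p-value under 0.05, against 7.92% of all genes. That was Fkbp4, the co-chaperone that favours receptor transport and opposes FKBP51, at 80.4 ± 3.36 CPM in WT and 91.2 ± 10.4 in KO (SD, n = 3; log2 fold change 0.18, SE 0.0730, edgeR adjusted p = 0.606). Without KO 2 its log2 fold change was 0.084. The heat shock proteins Hspa8 and Hsp90ab1, the most abundant of the list, had log2 fold changes of 0.11 (SE 0.0847) and 0.059 (SE 0.0486), or -0.0075 and 0.0032 without KO 2. KO 2 was the highest library for 8 of the 15 (53.3%, against 21.8% of all genes), and for 0 of them did it reach 1.5 times the highest other library.

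Among 13 coregulators of the receptor, 0 were called by edgeR. Ncor1 and Crebbp, a corepressor and a histone acetyltransferase gene, had log2 fold changes of -0.0024 (SE 0.0425) and 0.025 (SE 0.0489), or -0.0305 and -0.023 without KO 2. KO 2 was the highest library for 9 of the 13 coregulators (69.2%), again with 0 at 1.5 times the highest other library. The median was 0.059 for the chaperones and 0.020 for the coregulators, and without KO 2 it was 0.0032 and -0.023.

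Of 6 genes that metabolise or export corticosteroids, 5 were tested, 0 were called and 0 had an unadjusted p-value under 0.05 in edgeR. H6pd, which supplies the cofactor for corticosterone regeneration, differed by 0.084 in log2 (SE 0.0738), and Abcb1a, an efflux pump of the blood-brain barrier, by 0.028 (SE 0.0544). The other 3 tested genes had lower means in KO. The steroid-activating enzyme gene Hsd11b1 differed by -0.098 (SE 0.108), the steroid reductase gene Srd5a1 by -0.17 (SE 0.114) and the efflux pump gene Abcb1b by -0.22 (SE 0.174). Without KO 2 the values were 0.099 for H6pd, -0.0089 for Abcb1a, -0.12 for Hsd11b1, -0.105 for Srd5a1 and -0.017 for Abcb1b. The median of the 5 was -0.098, and it ranged from -0.20 without KO 1 to 0.012 without KO 3 when 1 library was left out. Of 10 peptides and receptors of the stress axis, 7 were tested, 0 were called and 1 had an unadjusted p-value under 0.05, again against 7.92% of all genes. This was Crhr1, the receptor of corticotropin-releasing hormone, at 25.1 ± 0.923 CPM in WT and 28.7 ± 3.43 in KO (SD, n = 3; edgeR adjusted p = 0.622), with KO 2 the highest at 32.6 CPM. Crhbp, which encodes the binding protein of that hormone, had a log2 fold change of 0.046 (SE 0.111). Without KO 2 the log2 fold change of Crhr1 moved from 0.19 to 0.087 and that of Crhbp to -0.00028. In that edgeR fit 0 of the 7 stress axis genes had an unadjusted p-value under 0.05.

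The breadth of the KO 2 pattern was then measured over all genes. Among 17301 genes with a mean of at least 1 CPM, 73 reached in KO 2 at least 1.5 times the highest of the other 5 libraries. The same count was 25 for KO 3, 9 for WT 1, 8 for WT 3 and 3 each for WT 2 and KO 1. Of the 73 genes, 6 belong to the 9 genes followed here and 8 to the wider induced list. Plin4 and Hif3a had the largest ratios of all 73, at 7.10 and 3.29, and Zbtb16, Fkbp5, Sgk1 and Tsc22d3 were 7th, 12th, 13th and 15th.

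Some of the 73 genes outside the lists were chosen for mention after their values were seen. Derl3 was at 3.18 CPM in KO 2 and at most 1.02 CPM elsewhere, Sdf2l1 at 9.03 against at most 3.51, Hspa5 at 332 against at most 179 and Xbp1 at 89.8 against at most 51.0 CPM. Per2, a clock gene, was at 89.8 CPM in KO 2 and at most 53.7 CPM in the other libraries. The part of these genes in the pattern of the 9 was not tested.

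**Figure D5:**
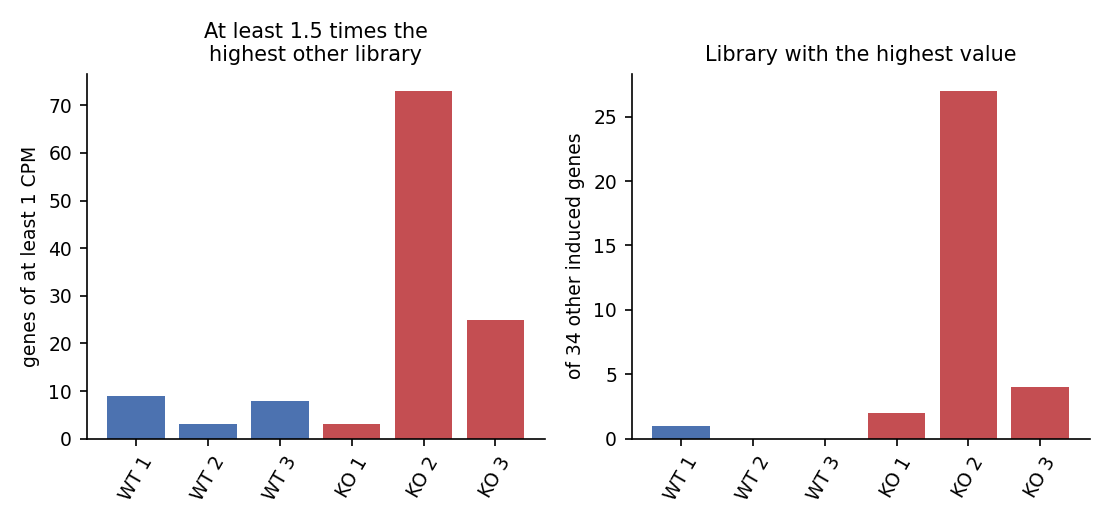
Left, the number of genes of at least 1 CPM that reach at least 1.5 times the highest other library, by library; right, the number of the 34 other induced genes for which each library is the highest. KO 2 leads both counts, with 73 and 27.

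Over the 10 marker lists, the summed level in KO 2 lay between 0.658 and 1.18 times the median of the other libraries. The summed CPM of 8 endothelial markers was 245 in KO 2 and between 253 and 273 in the other libraries, and that of 8 astrocyte markers was 5314 in KO 2, against 5114 to 5480 over the others. The 8 oligodendrocyte markers summed to 3994 CPM in KO 2, inside the KO range of 3628 to 4342 CPM, where WT ranged from 4218 to 4652. The 8 choroid plexus markers summed to 471, 461 and 394 CPM in KO libraries 1 to 3, all above the WT range of 336 to 390. The 6 blood markers were lowest in KO 2, at 99.0 CPM, against 110 to 150 CPM in WT and up to 248 CPM in KO 1. Their part in the values of the 9 genes was not tested.

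Genes with the most similar pattern over the 6 libraries were picked by the root mean square difference of log2 CPM, each gene centred on its own mean, among 17300 genes of at least 1 CPM. Nearest to Fkbp5 were Smim3, AC113485.1 and Gm15344, with differences of 0.095, 0.095 and 0.097 on the log2 scale. Smim3, a small membrane protein gene, was at 8.11 CPM in KO 2 and between 3.597 and 4.48 CPM elsewhere. Nearest to Plin4, the gene with the widest spread, were Hif3a (0.56), Fmo2 (0.62) and Map3k6 (0.68). Fmo2, a flavin-containing monooxygenase gene, was at 8.47 CPM in KO 2 and between 1.49 and 2.61 CPM in the other libraries.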

How the data were processed

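The authors deposited 1 table of raw read counts per gene for each library; adapters were trimmed with cutadapt 1.9.1 and reads aligned with STAR 2.7.0f, per the submitters' processing notes. The genome build and annotation are not given in the sources used here, and the 55450 gene identifiers of the tables are those of GENCODE M21 (GRCm38). Counts on the strand held in column 4 were used. The tables list reads with several places or genes in rows of their own, which stayed out of the tests, as did reads in no gene (48.6% to 52.2% of mapped reads). Genes were filtered (filterByExpr), scaled (TMM) and tested with edgeR 4.0.16 in R 4.3.3 (quasi-likelihood, genotype as the sole factor, Benjamini-Hochberg over 21237 genes, threshold 0.05). On simulated counts with known changes, the share of false calls was above this threshold with edgeR, limma-voom and DESeq2, so adjusted p-values may be somewhat too small. No simulated library was made to stand apart as KO 2 does, so the share of false calls in these data is not known. SE is the log2 fold change divided by the square root of F. Log2 values for similarity of pattern used a prior count of 0.5. The 9 genes and all lists were chosen with earlier results of these data known. From each list of related genes, the 2 most abundant and up to 3 with the smallest unadjusted p-values under 0.05 are named. A result on the coregulators is not reported here. The description of KO 2 and the factor of 1.5 were chosen after the values were seen. DESeq2 1.42.0 and limma 3.58.1 served as alternatives.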

Additional observations from a re-analysis of the deposited data

How the results depend on the processing

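Counts of libraries within a group differed by more than sampling noise, with chi-square values per degree of freedom from 4.40 to 9.50. The number of genes past the threshold, 2 in edgeR with all libraries, was 298 without a filter on low counts, 26 with the DESeq2 Wald test, 4 with the replicate block, and from 2 to 5 when 1 library was left out (5 without KO 3). Without the filter 7 of the 9 genes were called, at log2 fold changes of 0.47 for Fkbp5, 0.67 for Sgk1, 0.55 for Tsc22d3, 0.64 for Zbtb16, 2.38 for Plin4, 0.99 for Cdkn1a and 1.11 for Hif3a, with adjusted p-values from 1.24e-76 for Plin4 to 2.66e-07 for Fkbp5. That alternative tested 37245 genes and shrank each gene's spread fully to the common trend (infinite prior degrees of freedom), where the filtered fit had 7.53. None of the 9 was called in the other 11 alternatives or in the 6 fits without 1 library; in DESeq2, 4 of them had no adjusted p-value. The wider induced list had 16 calls without the filter and 1 in DESeq2. No sign changed for any of the 9, but limma-voom lowered Plin4 from 2.38 to 1.58 and Hif3a from 1.11 to 0.68, and the unstranded counts lowered Plin4 to 1.03. Without KO 2 and without KO 3, the lowest and highest values were 0.022 and 0.70 for Fkbp5, 0.15 and 0.96 for Sgk1, 0.066 and 0.81 for Tsc22d3, 0.064 and 0.91 for Zbtb16, 0.59 and 2.85 for Plin4, and 0.030 and 1.53 for Hif3a. The scalings moved the median of all genes by at most 0.010 on the log2 scale. Same-numbered KO and WT libraries showed no sign of pairing, with correlations of their deviations of 0.025, -0.020 and -0.067, and the replicate block called none of the 9.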
